A study of Mus musculus with 19 samples.

Results

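The genes described here are 39 regulators of chromatin and DNA methylation, given as a list of Polycomb, DNA methylation, histone deacetylation, histone methylation and chromatin remodelling genes. All 39 were rows of the deposited expression table, out of 18607 genes in all. The list was made by gene name and not by a threshold on measured values, although it was made with other results of these data known. The genes were followed through 3 progenitor populations of mouse bone marrow on the way to innate lymphoid cells (ILCs), the lymphocytes that act without rearranged antigen receptors.

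RNA sequencing was performed on 19 sorted samples from C57BL/6 mice. ALP, common lymphoid progenitors that still give rise to B and T cells, had 7 libraries and were sorted as lineage-low, Ly-6D-low, Kit-positive, IL-7Ra-positive cells with high Flt3. EILP, early innate lymphoid progenitors, had 7 libraries and were sorted as lineage-low, Ly-6D-low, CD122-low, Kit-positive and GFP-high, with low Thy-1.2 and intermediate or low IL-7Ra. ILCp, a later ILC precursor, had 5 libraries and were likewise lineage-low, Ly-6D-low, CD122-low, Kit-positive and GFP-high, but positive for Thy-1.2 and a4b7 and high for IL-7Ra. Every mouse carried a GFP reporter, which was Tcf7EGFP/+ (an EGFP allele of Tcf7, the gene of the transcription factor TCF-1) in all ALP and EILP libraries and in ILCp 1, 2 and 3, and Plzf-cre-GFP/+ in ILCp 4 and 5. The GFP gate of EILP and of the first 3 ILCp libraries therefore read Tcf7, and that of the other 2 read the gene of PLZF. Age and sex of the mice, and whether libraries came from separate animals, were not given in the sources used here, so the p-values measure only the spread between these libraries. The labels also gave 5 batches, of which batch 3 held EILP 3 and 4 alone, batch 5 held no ILCp, and batch 4 held 3 of the 5 ILCp libraries.

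Values are log2 CPM, the base-2 logarithm of a gene's reads scaled to a common library total, so that 1 unit is a 2-fold difference. The read depth behind them is unknown, and no counting interval could be given. The values had been cleared of batch before they were deposited: a batch effect fitted beside the stages was at most 1.84e-08 log2 units for any gene, against up to 6.01 when the stages were left out of the fit. SDs within a stage are therefore smaller than those of uncorrected libraries would be. Because batch 3 held EILP 3 and 4 alone, clearing also set the mean of these 2 libraries to the EILP mean for every gene. They therefore carry no information on the EILP level, though the EILP counts, medians, SDs and overlaps below include them. Libraries correlated pairwise between 0.376 and 0.904 across genes with a mean above 2 log2 CPM. Of 12 sorting and stage markers, such as Tcf7, Id2, Gata3 and Zbtb16, 9 were higher and 1 (Il7r) lower in EILP than in ALP, and 5 were higher in ILCp than in EILP, by limma's moderated test at an adjusted p below 0.05. Markers of other cells differed between the stages as well. The summed level of 5 stroma markers lay between 1.58 and 10.5 log2 CPM in EILP libraries and between -1.59 and 1.95 in ALP libraries. Of these, Col1a1 and Col1a2 passed. That of 8 myeloid markers lay between 6.49 and 10.7 in ILCp libraries and between 10.7 and 15.3 in EILP libraries, and 2 of the 8, as well as 2 of the 5 stroma markers, were lower in ILCp, while 1 dendritic cell marker was higher. For EILP over ALP, 2 of 4 dendritic cell markers and 1 of 6 B lineage markers were lower, 1 of 5 NK cell markers was higher, and none of 6 T cell or 6 erythroid markers passed. For ILCp over ALP, 2 T cell and 2 NK cell markers were higher, 2 B lineage markers and 1 myeloid marker were lower, 3 of the 4 dendritic cell markers were lower and 1 was higher, and no stroma or erythroid marker passed. Of 18 cell cycle genes, 5 were lower in EILP than in ALP and 11 were lower in ILCp than in ALP. In bulk samples, fewer cells of a type and less RNA per cell cannot be told apart, and the part of these markers in the results below was not tested.

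Polycomb repressive complex 2 (PRC2) methylates lysine 27 of histone H3 through Ezh1 or Ezh2, and Polycomb repressive complex 1 (PRC1) ubiquitinates histone H2A through Rnf2 or Ring1. Together they keep genes of other lineages or of earlier and later stages silent. DNA methyltransferases place methyl groups on cytosines and TET dioxygenases oxidise them. Histone deacetylases and demethylases remove marks of active chromatin, or of repressed chromatin in the case of Kdm6a and Kdm6b, and ATP-dependent remodellers move or eject nucleosomes. In lymphoid progenitors these enzymes act beside lineage transcription factors.

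Of the 39 genes, 36 lay above the median mean level of all genes, and the median SD of a member within a stage was 0.386 log2 units in ALP, 0.383 in EILP and 0.358 in ILCp. Genes above the median level had 0.434, 0.378 and 0.408, so the members varied about as much as that set, which was not matched to their levels. Corrected for exon length, the highest mean levels were those of the class I deacetylases Hdac1 (6.45 log2 CPM per kb), Hdac2 (6.02) and Hdac3 (5.37), and the lowest were those of the remodeller Chd7 (-4.93), the deacetylase Hdac9 (-3.79) and the PRC1 reader Cbx7 (-1.49). A moderated F test for any difference among the stages called 7 of 39 members, or 17.9%, against 9.59% of all genes and 13.5% of the genes above the median level. The 7 genes were Satb1, Kdm5b, Hdac9, Rnf2, Smarca2, Setd2 and Jarid2.

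**Figure D1:**
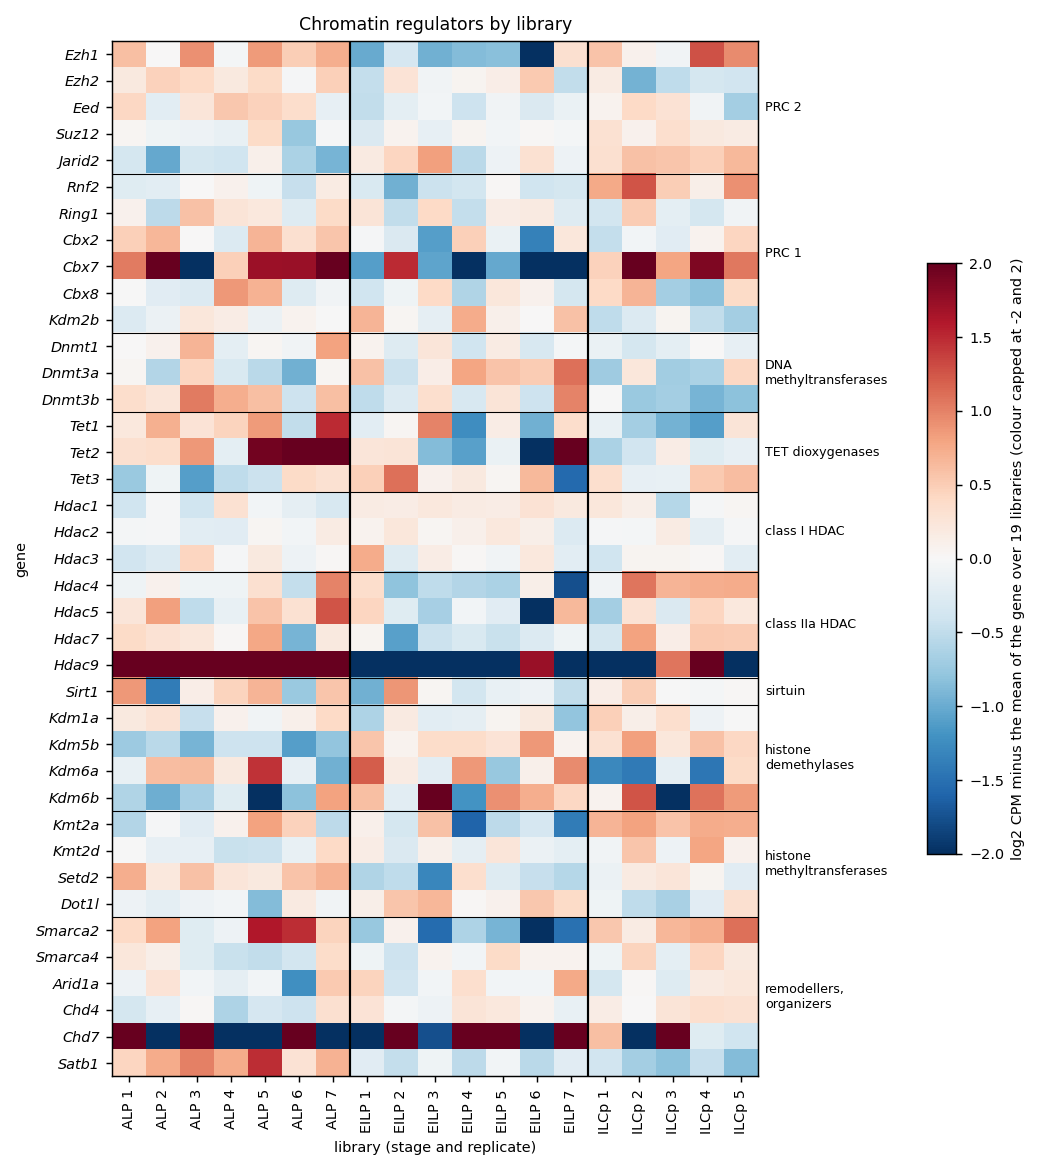
Level of each of the 39 genes in each of the 19 libraries, shown as log2 CPM minus the gene's mean over all libraries. Rows are genes grouped by role, columns are libraries in the order ALP, EILP and ILCp, and the colour scale is in log2 units. Satb1 and Hdac9 are high in ALP, Kdm5b is high in EILP and ILCp, and most other rows show no block that follows the stages.

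The first step of the series was EILP against ALP. At this step 1 member, the demethylase gene Kdm5b, was higher in EILP, and 4 were lower: the chromatin organizer Satb1, the deacetylase Hdac9, the remodelling ATPase Smarca2 and the histone methyltransferase Setd2. These are 5 of 39, or 12.8%, against 5.05% of all genes at the same threshold (2.25% higher and 2.79% lower, or 804 and 395 genes with each library centred on its own median) and 6.58% of genes above the median level. An unadjusted p below 0.05 was reached by 10 members. The share of all genes with such a p was not counted for the stage comparisons, so nothing is read from this number. The libraries of the stages did not overlap at all for 3 members, Hdac9, Kdm5b and Satb1, and for 4.74% of all genes. The median log2 fold change of the members was -0.24, against 0.00 over all genes, with 17 members positive and 22 negative. The split between higher and lower depended on scaling. With each library centred on its own median, the fold changes of all genes moved by a median of 0.22 log2 units and 6 members passed, 3 higher and 3 lower. Relative to that shift, 2 members, Ring1 and Cbx8, changed the sign of their fold change, and neither had been called.

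Satb1 (chr17:51736187-51833290, minus strand, GRCm38) encodes a nuclear protein that anchors chromatin loops and is needed for normal T cell development. In ALP libraries it had a lowest value of 8.47, a median of 8.91 and a highest value of 9.66 log2 CPM. EILP libraries had 7.63, 7.94 and 8.12, and the 5 ILCp libraries had 7.79, 7.49, 7.35, 7.71 and 7.31. Every EILP and every ILCp library lay below every ALP library, while EILP and ILCp overlapped. The log2 fold change of EILP over ALP was -1.07 ± 0.19 (SE), which is 0.475 of the ALP level (limma, Benjamini-Hochberg adjusted p = 0.00213). Within the 4 batches that held both stages the differences were -0.65, -1.35, -0.80 and -1.21, negative in each. Over ALP, ILCp stood at -1.41 ± 0.21, or 0.376 of the ALP level (limma adjusted p = 0.000499). Without batch 4 that comparison read -1.29 (limma adjusted p = 0.0569). Between ILCp and EILP the fold change of -0.34 ± 0.22 did not pass (limma adjusted p = 0.474). The fall of Satb1 was thus measured at the first step, and with median centring it remained, at -0.86 log2 units for EILP over ALP.

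Kdm5b (chr1:134560171-134635285, plus strand) removes methyl groups from lysine 4 of histone H3, a mark of active promoters. Its ALP libraries ran from 6.27 through a median of 6.65 to 6.97 log2 CPM. Those of EILP ran from 7.44 through 7.74 to 8.24, and the ILCp libraries had 7.69, 8.20, 7.60, 7.96 and 7.78. No EILP or ILCp library overlapped ALP, and the ILCp values lay inside the EILP range. Kdm5b was 2.10-fold higher in EILP than in ALP (log2 fold change 1.07 ± 0.18, limma adjusted p = 0.00155). It was also 2.25-fold higher in ILCp than in ALP (1.17 ± 0.20, limma adjusted p = 0.00158). Within batches EILP exceeded ALP by 1.28, 0.81, 0.69 and 1.23, and ILCp exceeded ALP by 1.04, 1.55 and 0.82. From EILP on, the level did not move beyond its error (0.10 ± 0.21, limma adjusted p = 0.868).

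Hdac9 (chr12:34047580-34917095, minus strand) is a class IIa deacetylase, a family that shuttles between nucleus and cytoplasm and binds MEF2 factors. ALP libraries showed it at a lowest value of 2.65, a median of 3.98 and a highest value of 4.78 log2 CPM. In EILP it was below 0 in 6 of 7 libraries, with a lowest value of -6.75, a median of -3.20 and a highest value of 1.81. The ILCp libraries had -2.10, -2.48, 1.15, 2.38 and -1.91. No EILP or ILCp library reached the lowest ALP library, and ILCp 3 and ILCp 4 stood above the other 3 of their stage. EILP 2 and ILCp 2, both of batch 2, held the same value to within 1e-06. For genes at or below the median level, such a shared value is the batch's lowest in 98.8% of cases. EILP 3 and 4 also shared a value, but they are the whole of batch 3, so that share says nothing about them. Their value is the EILP mean of -3.20, which the clearing of batch set. The fitted difference of EILP from ALP, -7.06 ± 1.37 log2 units (limma adjusted p = 0.0051), thus depends on where that bottom lies and is no measure of a fold. Its sign was the same in each batch (-6.89, -6.91, -9.73 and -5.83). Against ALP, ILCp differed by -4.44 ± 1.57 (limma adjusted p = 0.102) and against EILP by 2.61 ± 1.63 (limma adjusted p = 0.453), neither past the threshold.

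The promoter windows of Kdm5b and Hdac9 are shown as examples of how widely the called genes vary in CpG dinucleotides, the sites that DNA methyltransferases act on. Kdm5b was the only gene that rose at this step, so CpG number could not be related to direction. Of the other genes that fell, Setd2 had 38 CpGs and Smarca2 29. The Satb1 windows had 45, 13, 8, 7 and 3. RefSeq windows on GRCm38.p6, from 250 bases before to 50 after each annotated start, are shown 5′ to 3′ on the gene's own strand, with CpGs in capitals. Kdm5b has 1 window (chr1:134559928-134560227, plus strand) with 17 CpGs, and Hdac9 has 2 (chr12:34528840-34529139 and chr12:34917046-34917345, both minus strand) with 3 and 0.
Kdm5b: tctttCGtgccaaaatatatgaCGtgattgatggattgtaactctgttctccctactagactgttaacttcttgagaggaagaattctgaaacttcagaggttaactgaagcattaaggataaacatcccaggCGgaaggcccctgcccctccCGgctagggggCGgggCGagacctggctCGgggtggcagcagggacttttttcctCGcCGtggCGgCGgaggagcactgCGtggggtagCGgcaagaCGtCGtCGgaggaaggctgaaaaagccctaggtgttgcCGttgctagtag
Hdac9, inner start: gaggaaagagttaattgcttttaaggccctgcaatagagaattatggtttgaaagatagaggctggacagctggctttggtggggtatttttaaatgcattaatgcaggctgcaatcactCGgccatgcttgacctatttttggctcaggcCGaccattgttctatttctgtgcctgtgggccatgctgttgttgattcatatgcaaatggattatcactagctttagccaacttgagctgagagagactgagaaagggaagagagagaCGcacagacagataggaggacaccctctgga
Hdac9, outer start: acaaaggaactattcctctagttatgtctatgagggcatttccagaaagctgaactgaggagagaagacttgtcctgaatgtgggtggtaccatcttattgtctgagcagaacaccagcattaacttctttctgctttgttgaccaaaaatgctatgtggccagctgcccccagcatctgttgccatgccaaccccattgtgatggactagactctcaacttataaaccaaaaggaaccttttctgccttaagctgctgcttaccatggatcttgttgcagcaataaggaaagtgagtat

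Over the 34 members with a window in the table (Cbx2, Chd7, Hdac1, Hdac3 and Kdm6b had none) there were 52 windows, with a median of 28.5 CpGs and 65.7% GC. All 32851 windows of the genome had medians of 7.0 CpGs and 52.7% GC. Only 8 member windows, or 15.4%, held fewer than 10 CpGs, against 56.5% of all windows, and 2 of these 8 belonged to Hdac9 and 3 to Satb1. No methylation was measured in these samples.

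Smarca2 (chr19:26605050-26778322, plus strand) encodes BRM, an ATPase of the SWI/SNF remodelling complex that can take the place of its paralog BRG1, encoded by Smarca4. Its levels in ALP spanned 5.55 to 7.39 log2 CPM with a median of 6.23. EILP spanned 3.47 to 5.87 with a median of 4.86, and ILCp had 6.33, 5.96, 6.45, 6.51 and 6.89. EILP and ALP overlapped only through the highest EILP library (EILP 2) and the 2 lowest ALP libraries (ALP 3 and ALP 4), and every ILCp library lay above every EILP library. Smarca2 fell in EILP to 0.306 of the ALP level (log2 fold change -1.71 ± 0.42, limma adjusted p = 0.0249). Between ILCp and EILP the difference of 1.72 ± 0.50 did not pass (limma adjusted p = 0.0732), and ILCp and ALP differed by 0.01 ± 0.48 (limma adjusted p = 1). In the contrast of EILP with the mean of ALP and ILCp, Smarca2 was the 1 member called, at -1.72 ± 0.39 (limma adjusted p = 0.0287). That share, 2.56%, is near the 2.41% of all genes called there (1.32% lower) and the 3.33% of genes above the median level. Within batches the EILP to ALP difference was -1.15, -0.20, -0.84 and -3.08, so its size varied widely. The EILP to ALP call was lost when ALP 1, 2, 5 or 6 or EILP 5, 6 or 7 was left out, with fold changes between -2.15 and -1.33 and limma adjusted p values up to 0.0896 over the 19 omissions. The call against the mean of the other stages was lost in 12 of the 19 omissions, with differences between -2.15 and -1.42 and limma adjusted p values up to 0.0979.

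Setd2 (chr9:110532597-110618633, plus strand) trimethylates lysine 36 of histone H3 in transcribed genes and is required for lymphocyte development in mice. ALP libraries had a lowest value of 6.54, a median of 6.91 and a highest value of 7.07 log2 CPM, EILP libraries 5.04, 5.83 and 6.68, and ILCp libraries 6.23, 6.53, 6.59, 6.40 and 6.12. A single EILP library, EILP 4, reached into the ALP range. Setd2 in EILP stood at 0.521 of the ALP level (-0.94 ± 0.23, limma adjusted p = 0.027), and the differences within the 4 batches were all negative, from -1.32 to -0.50. The call was lost without ALP 1, 6 or 7 or EILP 1, 2, 6 or 7, at fold changes between -1.01 and -0.86 and limma adjusted p values up to 0.0765 over the 19 omissions. It was also lost with median centring. ILCp values overlapped those of both other stages, and neither comparison with ILCp passed (0.51 ± 0.28 over EILP, limma adjusted p = 0.377; -0.43 ± 0.27 over ALP, limma adjusted p = 0.397).

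**Figure D2:**
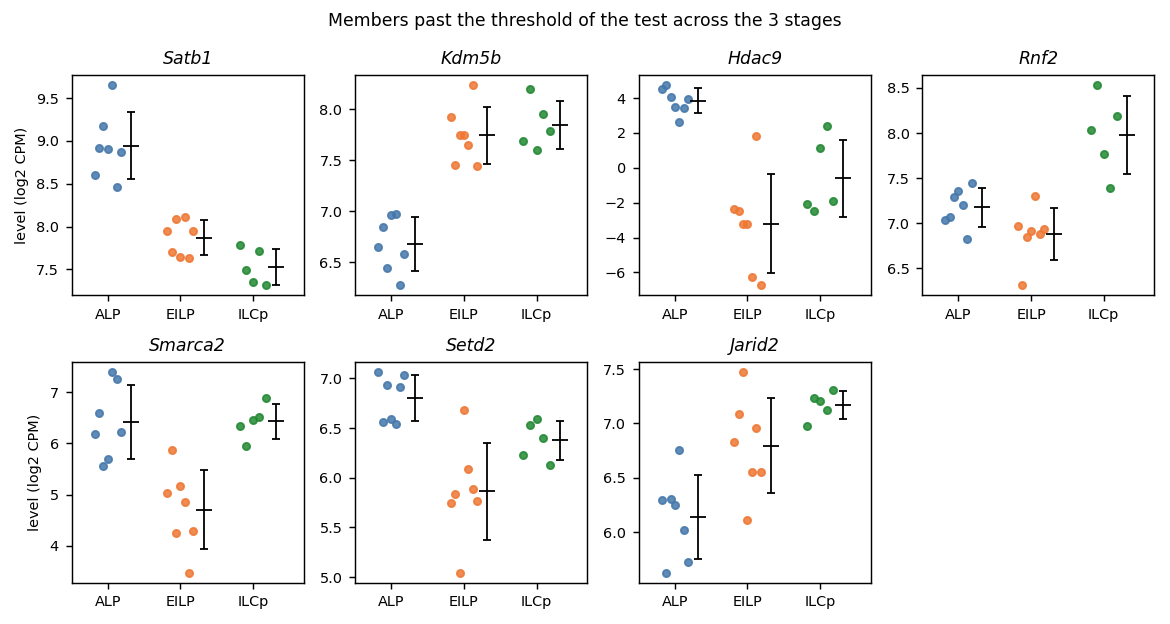
Level of the 7 called genes in every library, with 1 panel a gene. Points are libraries, the bar is the stage mean with its SD, the vertical axis is log2 CPM, and stages run ALP (n = 7), EILP (n = 7) and ILCp (n = 5). Satb1 and Hdac9 are highest in ALP, Kdm5b is lowest there, Smarca2 and Setd2 dip in EILP, and Rnf2 is highest in ILCp.

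The second step, ILCp against EILP, called 1 member of 39, the PRC1 ubiquitin ligase Rnf2. This share of 2.56% is near the 3.21% of all genes called at this step (1.76% higher and 1.46% lower, or 279 and 390 genes with median centring) and below the 4.96% of genes above the median level. Before adjustment, 6 members had a p below 0.05, again without a count over all genes. The libraries of the stages did not overlap for 3 members, Suz12, Rnf2 and Smarca2, and for 8.68% of all genes. The members' median log2 fold change was 0.14, against -0.08 over all genes. Without batch in the fit, or with the replicate number in its place, more members passed, as given with the other settings at the end.

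Rnf2 (chr1:151458004-151500955, minus strand), also known as RING1B, is the main catalytic subunit of PRC1. In ALP libraries it had a lowest value of 6.82, a median of 7.20 and a highest value of 7.44 log2 CPM. EILP libraries had 6.31, 6.92 and 7.30, and ILCp libraries had 8.03, 8.54, 7.77, 7.39 and 8.19. All ILCp libraries lay above all EILP libraries, by a narrow margin for ILCp 4, and that same library overlapped ALP. Rnf2 rose 2.15-fold in ILCp over EILP (log2 fold change 1.10 ± 0.24, limma adjusted p = 0.0213), and by 1.06, 2.23 and 0.48 within the 3 batches that held both. Leaving out EILP 2, ILCp 1 or ILCp 2 ended the call, and over the 19 omissions the fold change ran between 0.82 and 1.35 with limma adjusted p values up to 0.10. Exons of Rnf2 overlap by up to 158 bases with those of Trmt1l, a tRNA methyltransferase gene on the opposite strand, and the library kits do not mark strand. Trmt1l differed between ILCp and EILP by -0.10 log2 units (limma adjusted p = 0.906).

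From ALP to ILCp, across both steps, 4 of 39 members passed: Kdm5b, Jarid2 and Rnf2 were higher in ILCp and Satb1 was lower. This is 10.3%, against 8.24% of all genes (3.86% higher and 4.39% lower, or 813 and 584 genes with median centring) and 11.7% of genes above the median level, so the members were called about as often as genes in general. The members' median was 0.03, against -0.03 over all genes. An unadjusted p below 0.05 was found for 8 members, likewise without a count over all genes. Jarid2, Hdac9, Kdm5b and Satb1 had no overlap between ILCp and ALP, and neither had 8.96% of all genes. The comparison shares its ILCp and ALP libraries with the 2 steps and is not independent of them.

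Jarid2 (chr13:44729474-44921643, plus strand) is an accessory subunit that helps to bring PRC2 to its targets. ALP libraries lay between 5.63 and 6.75 log2 CPM around a median of 6.25. EILP libraries lay between 6.11 and 7.47 around 6.83, and ILCp libraries had 6.98, 7.23, 7.21, 7.12 and 7.31. ILCp did not overlap ALP, and EILP overlapped both. Jarid2 was 2.04-fold higher in ILCp than in ALP (1.03 ± 0.27, limma adjusted p = 0.0281), with 0.68, 1.27 and 0.96 within batches. Neither single step passed (0.65 ± 0.24 for EILP over ALP, limma adjusted p = 0.151, and 0.38 ± 0.28 for ILCp over EILP, limma adjusted p = 0.553). The ILCp call was lost without ALP 2, ALP 4, EILP 5, ILCp 2 or ILCp 5, at fold changes between 0.91 and 1.13 and limma adjusted p values up to 0.114 over the 19 omissions. With median centring it also passed for EILP over ALP.

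Rnf2 was 1.75-fold higher in ILCp than in ALP (0.81 ± 0.23, limma adjusted p = 0.0426), a call close to the threshold. The call stayed when ALP 7, EILP 2, EILP 5 or ILCp 4 was left out and was lost in the other 15 omissions. Over the 19 omissions fold changes lay between 0.49 and 0.93, with limma adjusted p values up to 0.293. The losses include EILP 3 and EILP 4, which carry no information on the levels compared, so a loss does not show that the call rested on that library. Trmt1l differed by 0.36 log2 units in this comparison (limma adjusted p = 0.498).

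**Figure D3:**
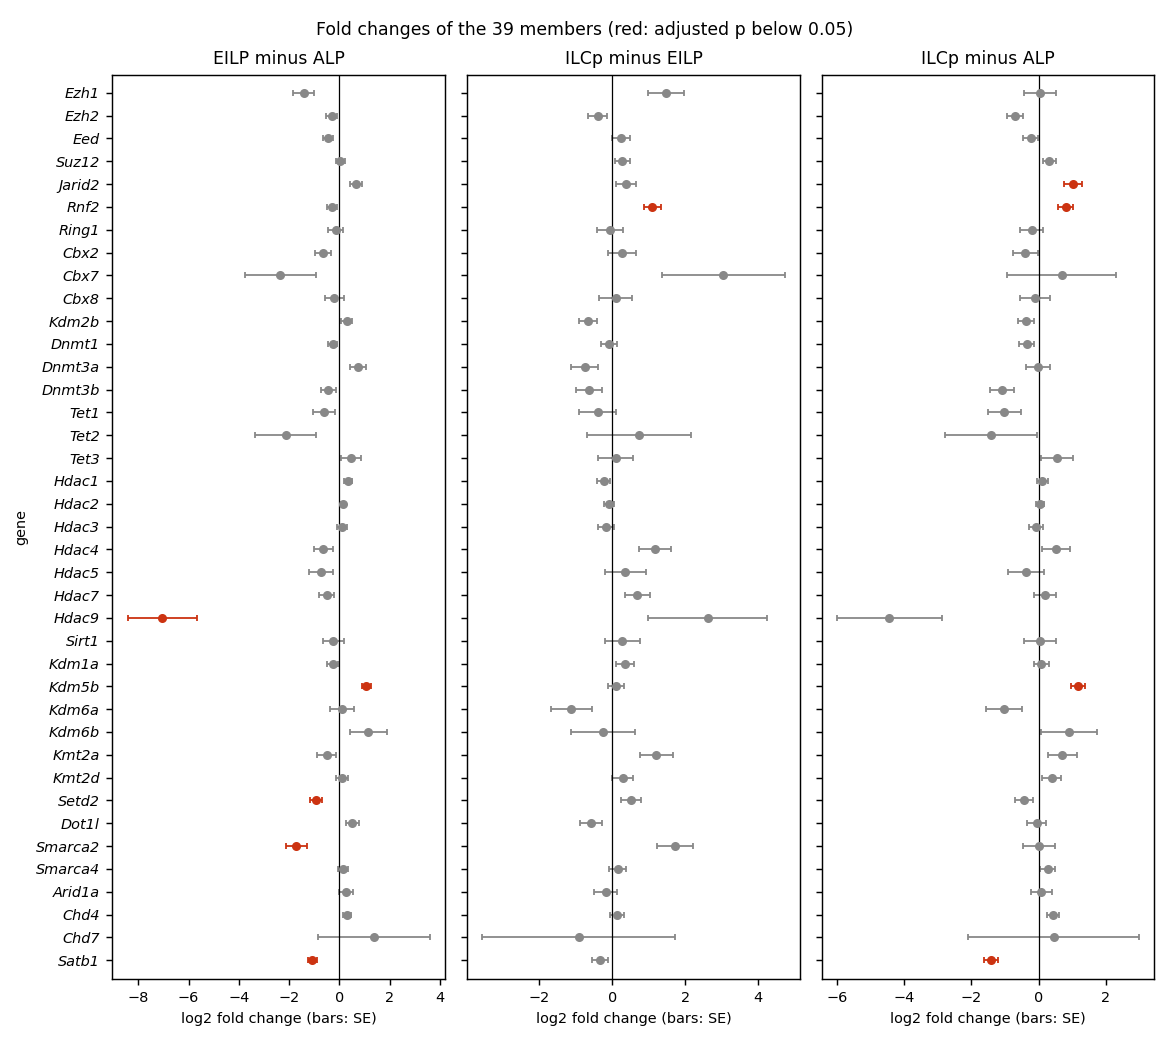
Log2 fold changes of the 39 genes, grouped by role, for EILP over ALP, ILCp over EILP and ILCp over ALP. Points are limma estimates, lines are standard errors and red points passed an adjusted p below 0.05 over all 18607 genes, with a horizontal scale for each panel. Most points lie within 1 log2 unit of 0, with Hdac9 far to the negative side for EILP over ALP.

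Among the PRC2 genes, no core subunit was called in any of the 3 comparisons. Eed, which reads the H3 lysine 27 methyl mark, averaged 7.14, 6.67 and 6.91 log2 CPM in ALP, EILP and ILCp. Suz12, which holds the complex together, averaged 6.60, 6.64 and 6.91. Of the 2 catalytic paralogs, Ezh1 averaged 6.28 ± 0.38 in ALP, 4.85 ± 0.92 in EILP and 6.33 ± 0.56 in ILCp (SD), and its EILP over ALP fold change of -1.42 was the closest to the threshold from outside (limma adjusted p = 0.0687). Ezh2 averaged 7.17 ± 0.18, 6.86 ± 0.37 and 6.46 ± 0.40, with a difference of -0.71 for ILCp over ALP (limma adjusted p = 0.0974).

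The difference between paralogs within a library still holds the difference of their lengths, which is the same in every library, so only its change across the stages can be read. Ezh1 minus Ezh2 had a median of -0.69 log2 units in ALP libraries (from -1.55 to -0.58), -1.99 in EILP libraries (from -4.31 to -0.28) and -0.07 in ILCp libraries (from -0.69 to 0.53). The difference was thus most negative in EILP, though the ranges of the stages overlap. Rnf2 minus Ring1, the pair of PRC1 ligases, had a median of 2.61 in ALP (2.25 to 3.14), 2.35 in EILP (1.99 to 2.94) and 3.58 in ILCp (3.30 to 3.95), where every library lay above those of both other stages. Dnmt3a minus Dnmt3b, the pair of de novo DNA methyltransferases, had a median of 0.04 in ALP (-0.50 to 0.35), 0.97 in EILP (0.46 to 1.76) and 0.94 in ILCp (-0.05 to 1.88). For this pair EILP did not overlap ALP, while the ILCp libraries overlapped both. Smarca2 minus Smarca4 had a median of -1.35 in ALP (-1.70 to 0.39), -3.01 in EILP (-4.09 to -1.21) and -1.07 in ILCp (-1.98 to -0.80). The remaining pairs, Hdac1 with Hdac2 and Kdm6a with Kdm6b, overlapped widely in all 3 stages. These differences were not tested, and overlap was not counted over other gene pairs. Ring1 averaged 4.56, 4.42 and 4.35 log2 CPM in ALP, EILP and ILCp, so the shift of Rnf2 minus Ring1 mostly restates that of Rnf2.

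**Figure D4:**
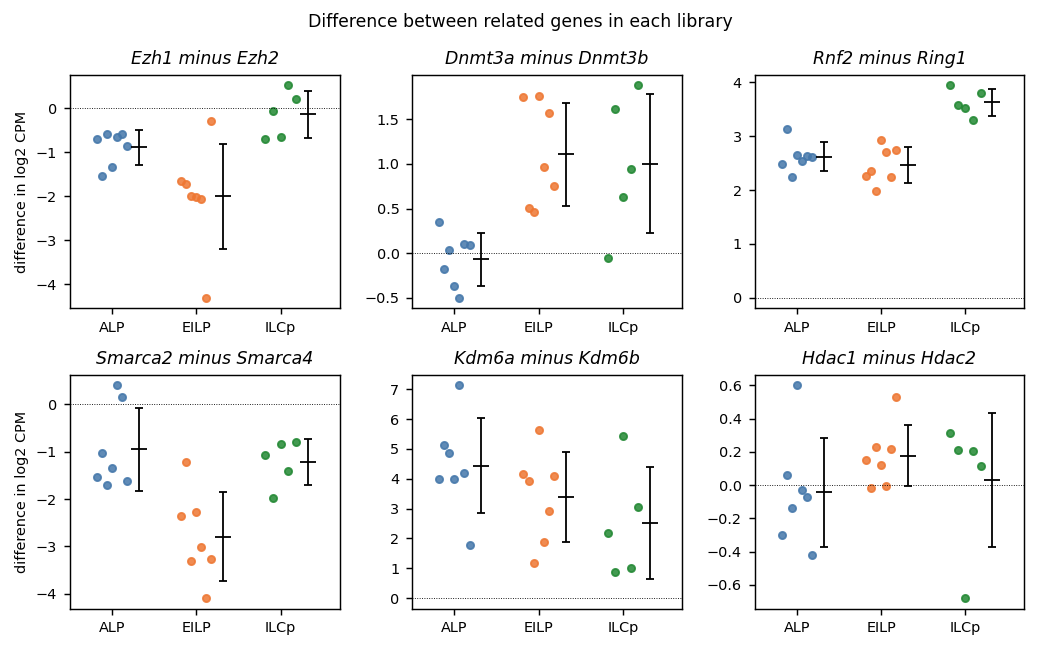
Difference in log2 CPM between the members of 6 paralog pairs in each library. Points are libraries, bars are the stage mean and SD, stages run ALP (n = 7), EILP (n = 7) and ILCp (n = 5), and 0 would be equal log2 CPM before any correction for length. Rnf2 minus Ring1 is highest in ILCp and Dnmt3a minus Dnmt3b is lowest in ALP.

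Of the other PRC1 genes, the chromobox readers Cbx2 and Cbx8 averaged 6.00, 5.34 and 5.61, and 3.86, 3.66 and 3.76, in ALP, EILP and ILCp. Kdm2b, which brings a variant PRC1 to unmethylated CpG islands, averaged 5.87, 6.16 and 5.50, and none of the 3 was called. Cbx7 had low and scattered levels, 1.89 ± 3.06 in ALP, -0.45 ± 1.87 in EILP and 2.59 ± 0.92 in ILCp, and was not called either.

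None of the DNA methylation genes passed in any of the 3 comparisons. Dnmt1, which copies methylation after replication, was among the 3 uncalled members with the highest log2 CPM before correction for length, at 8.33 ± 0.39, 8.06 ± 0.25 and 7.98 ± 0.13 log2 CPM in ALP, EILP and ILCp. Dnmt3a, which places new methylation and is often mutated in blood disorders, averaged 6.55 ± 0.47, 7.28 ± 0.49 and 6.53 ± 0.55. Dnmt3b averaged 6.61 ± 0.46, 6.17 ± 0.54 and 5.53 ± 0.36, and its ILCp over ALP difference of -1.08 was the nearest to the threshold from outside in that comparison (limma adjusted p = 0.0713). The oxidising enzymes averaged 5.59, 4.97 and 4.57 for Tet1, 5.70, 3.55 and 4.28 for Tet2, and 4.97, 5.43 and 5.52 for Tet3. Tet2 varied widely within EILP, with an SD of 3.06.

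Dnmt1 and Ezh2 are the 2 members whose promoter windows hold an E2F-type sequence, TTTGGCGC or TTTCGCGC on either strand. Genes of the replication machinery are known for such sequences. In the windows below (Dnmt1, chr9:20952574-20952873, and Ezh2, chr6:47594981-47595280, both minus strand, RefSeq, GRCm38.p6) the matching letters are in capitals.
Dnmt1: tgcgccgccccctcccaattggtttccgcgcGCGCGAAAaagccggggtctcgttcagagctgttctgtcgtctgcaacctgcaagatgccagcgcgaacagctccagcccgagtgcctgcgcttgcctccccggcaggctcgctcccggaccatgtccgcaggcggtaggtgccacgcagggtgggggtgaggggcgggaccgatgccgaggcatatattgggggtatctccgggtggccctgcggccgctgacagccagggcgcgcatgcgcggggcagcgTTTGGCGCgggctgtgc
Ezh2: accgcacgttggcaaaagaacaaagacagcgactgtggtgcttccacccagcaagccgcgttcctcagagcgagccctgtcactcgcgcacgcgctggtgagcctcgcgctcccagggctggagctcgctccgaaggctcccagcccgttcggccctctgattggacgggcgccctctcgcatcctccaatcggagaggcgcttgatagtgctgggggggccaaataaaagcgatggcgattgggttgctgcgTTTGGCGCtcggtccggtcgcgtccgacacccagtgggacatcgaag

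These 2 windows are 3.85% of the 52 member windows, against 0.813% of all windows. Both E2F-type sequences contain CpGs, and member windows held a median of 28.5 CpGs against 7.0 in all windows. None of the shares given here was matched for that difference. Sequences bound by TCF/LEF factors (CTTTGAT or CTTTGAA) were in 3 member windows, or 5.77%, against 8.65% of all. An E-box, CAGGTG, was in 7, or 13.5%, against 20.2% of all, and an ETS sequence, CCGGAAGT, was in 0, against 3.89% of all. No window of the 7 called genes held the TCF/LEF, E2F or ETS letters, and Satb1 had the E-box in 2 of its 5 windows. A match is a run of letters and was not measured as a bound site.

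No class I deacetylase was called in any of the 3 comparisons. Hdac1 averaged 8.09 ± 0.26, 8.43 ± 0.05 and 8.19 ± 0.31 log2 CPM in ALP, EILP and ILCp, and its 7 EILP libraries lay between 8.39 and 8.52. With median centring Hdac1 passed for EILP over ALP at 0.56 log2 units. Hdac2 averaged 8.13, 8.25 and 8.16, and Hdac3, the deacetylase of the NCoR and SMRT corepressors, averaged 7.37, 7.47 and 7.29. All 4 class IIa deacetylases had negative fold changes for EILP over ALP and positive ones for ILCp over EILP. Both comparisons use the same EILP libraries, so these opposite signs are not independent observations. How often other genes had the same signs was not counted, so no change of the family is read from them. Among these genes Hdac9 alone passed, and at the first step alone. Hdac4 averaged 5.09, 4.45 and 5.63, Hdac5 5.51, 4.79 and 5.14, and Hdac7 6.33, 5.83 and 6.52. The NAD-dependent deacetylase Sirt1 averaged 5.10, 4.86 and 5.14.

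Besides Kdm5b and Setd2, no histone methylation gene was called. Kdm1a, a demethylase of the CoREST complex, averaged 7.23, 6.96 and 7.32 log2 CPM in ALP, EILP and ILCp. Of the H3 lysine 27 demethylases, Kdm6a averaged 6.14, 6.24 and 5.12, and Kdm6b had low and scattered values (1.69, 2.84 and 2.60). Methyltransferases of H3 lysine 4 averaged 5.07, 4.57 and 5.77 for Kmt2a and 4.83, 4.93 and 5.22 for Kmt2d, and the H3 lysine 79 methyltransferase Dot1l averaged 4.67, 5.19 and 4.62. Among remodellers, Smarca4 (7.37, 7.50 and 7.65), the SWI/SNF subunit Arid1a (6.80, 7.05 and 6.87) and the NuRD ATPase Chd4 (6.96, 7.25 and 7.39) were not called. Chd7 averaged -1.77 ± 4.10, -0.40 ± 3.55 and -1.32 ± 2.79 and could not be read at this level, with values from -6.74 to 3.12 over all libraries.

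Beyond the 39 genes, 127 others in 7 lists of chromatin and deacetylase genes were measured. These lists were made by family, and not every gene in them acts on chromatin. For EILP over ALP, 3 of them passed, or 2.36%, against the 5.05% of all genes given above. The corepressor gene Rcor2 was higher (1.81 ± 0.45, limma adjusted p = 0.0286), and the mitochondrial deacetylase Sirt3 (-1.05 ± 0.23, limma adjusted p = 0.012) and the SWI/SNF subunit Arid1b (-1.05 ± 0.27, limma adjusted p = 0.0308) were lower. At the second step 6 passed, or 4.72%, near the 3.21% of all genes and the 4.96% of genes above the median level. Higher in ILCp than in EILP were the corepressor Ncor1 (0.83) and the demethylase Kdm7a (1.23). Lower were the variant PRC1 subunit Pcgf6 (-2.08), the arginine methyltransferase Prmt1 (-0.67), the architectural protein Hmga1 (-1.05) and the SWI/SNF subunit Smarcb1 (-0.72). Pcgf6 averaged 5.36, 5.77 and 3.69 log2 CPM in ALP, EILP and ILCp, so that within PRC1 the ligase Rnf2 was called higher and Pcgf6 lower at the same step.

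From ALP to ILCp, 12 of the 127 passed, or 9.45%, near the 8.24% of all genes and the 11.7% of genes above the median level. The 5 higher genes were Ncor1 (1.03), Kdm7a (1.29), Kdm5a (0.92), Mta2 (0.58) and Dpf2 (0.73). Among the 7 lower genes were Pcgf6 (-1.67), the PRC2 accessory subunit Mtf2 (-0.89), Sirt3 (-1.32), the H3 lysine 9 methyltransferase Suv39h1 (-0.73), Hmga1 (-1.12), Smarcb1 (-0.64) and Mbd3 (-0.48), a subunit of the NuRD complex. Jarid2 and Mtf2, both PRC2 accessory subunits, were thus called in opposite directions between the same stages. In EILP against the mean of ALP and ILCp, Pcgf6 (1.25) and Prmt1 (0.51) were higher. They are 1.57% of the 127 genes, against 2.41% of all genes called there. No gene of the 9 histone acetyltransferases passed in any of these 4 comparisons. The median log2 fold changes of the 127 genes were -0.07, -0.05 and -0.05 for EILP over ALP, ILCp over EILP and ILCp over ALP.

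The 2 ILCp libraries with Plzf-cre-GFP, set against the 3 with Tcf7EGFP, differed in none of the 39 genes after adjustment (lowest limma adjusted p = 1), and 1 gene, Eed, had an unadjusted limma p of 0.0189. Over all genes 14 passed, or 0.0752%, and 845 had an unadjusted p below 0.05. Both Plzf-cre-GFP libraries were in batch 4, beside a single Tcf7EGFP library.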

How the data were processed

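Per the labels' protocols, RNA of sorted bone marrow progenitors was amplified with a SMARTer low-input kit and tagmented with Nextera XT. The authors deposited 1 table of log2 CPM values for 18607 genes in 19 libraries. Tools in the submitters' processing notes, given there without roles, were limma, edgeR, STAR 2.4.0h and bcl2fastq 1.8.4, and the build was mm10. Low genes in particular share exact values within a batch: 50.3% of values of genes at or below the median level do, against 0.411% above it.

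The deposited log2 values were used with no further pseudocount or filter. limma 3.58.1 in R 4.3.3 (lmFit, contrasts, eBayes with trend, two-sided) was fitted to all 19 libraries with stage and batch as terms, leaving 12 residual degrees of freedom. P-values were adjusted by Benjamini-Hochberg over all genes, with a threshold of 0.05. The fit was tested on simulated data with independent normal noise and changes planted only in genes above the median level. That test does not cover changes in low genes such as Hdac9. Members past that threshold in a pairwise comparison are described in full, then the 3 highest and 3 lowest of the rest, and the others by role. The members and lists were chosen with earlier results of these data known. Gene coordinates and exon lengths are those of GENCODE M21 (GRCm38), and promoters those of RefSeq. Alternatives varied the batch term, the libraries, the scaling, the genes tested and the variance model.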

Additional observations from a re-analysis of the deposited data

Results flagged for a closer look

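In 8 of 117 sets, each 1 gene in 1 stage, a single library stood apart from the rest of its stage by Dixon's criterion. Chance gives about 1 in 20 such sets. Cbx7 was at -4.74 log2 CPM in ALP 3, against 1.68 to 4.18 in the other ALP libraries. Dnmt3b was at 6.15 in ILCp 1, against 5.24 to 5.48 in the other ILCp libraries, and it was the library nearest to the ALP values of that gene. In EILP 6, Tet2 was at -2.94 (3.44 to 6.74 in the other EILP libraries) and Hdac5 at 2.75 (4.48 to 5.79). In EILP 7, Tet3 was at 3.73 (5.33 to 6.39) and Hdac2 at 7.90 (8.22 to 8.40). Dot1l was at 3.98 in ALP 5 (4.66 to 5.02 in the other ALP libraries), and Arid1a at 5.69 in ALP 6 (6.73 to 7.44). None of the 8 genes was called in a comparison of the stages.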

How the results depend on the processing

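Main counts of members called were 5 for EILP over ALP, 1 for ILCp over EILP, 4 for ILCp over ALP, 1 for EILP against the mean of the others and 7 by the F test, and no called gene reversed its sign. Leaving out 1 library at a time gave 3 to 6, 0 to 1, 2 to 5, 0 to 2 and 4 to 7 members (696 to 964, 224 to 624, 920 to 1584, 233 to 452 and 1357 to 1724 genes over the whole table). Kdm5b in both comparisons, and Satb1 and Hdac9 for EILP over ALP, were called in every setting that tested them. Besides the omissions of 1 library, Setd2 (EILP over ALP) was not called with only the groups compared, without ALP 7 and EILP 2, without batch 4, with median centring, without the variance trend or at a 2-fold minimum (limma adjusted p up to 0.129). Smarca2 (EILP over ALP) was not called with only the groups compared, without the Plzf-cre-GFP libraries or without batch 4 (up to 0.12), and Jarid2 (ILCp over ALP) in the same 3 settings or without the trend (up to 0.263). Rnf2 was not called over EILP with only the groups compared, without ALP 7 and EILP 2 or without the trend (up to 0.155). Without a batch term the members called in the last 4 were 6, 8, 11 and 15, and genes in the whole data set numbered 2551, 3047, 3856, 2476 and 5238 (6 between reporters); the deposited values were already cleared of batch, so this fit counts degrees of freedom that are not there. Whether replicate numbers pair the libraries could not be read from the values. Of 17 same-number pairs, 1 correlated above 0.1 (range -0.642 to 0.117), and 1 library correlated best with its own number. Clearing of batch makes the deviations of libraries within a batch cancel, which pushes the correlations of same-batch pairs downward. Same-number pairs from different batches ran from -0.0314 to 0.117. A replicate block in place of batch gave 6, 3, 7, 5 and 9 members and 1613, 1484, 2362, 1165 and 3100 genes. With only the groups compared in the fit, 3, 0 and 3 members passed for the 3 pairs (823, 183 and 772 genes). Without the Plzf-cre-GFP libraries, 0 members passed for EILP against the mean and 4 by the F test (323 and 1253 genes). In that setting 254 and 1012 genes passed for ILCp over EILP and over ALP. Without batch 4, ILCp over ALP gave 2 members (583, 258, 855, 221 and 979 genes). Among the 9303 genes above the median level, ILCp over EILP gave 2 members and EILP against the mean 3 (647 and 433 genes), and the reporters 0 genes. Without the variance trend, 0, 2, 0 and 3 members passed in the last 4 (280, 1074, 277 and 1261 genes in the same order, and 33 between reporters). Without ALP 7 and EILP 2, 309 genes passed for ILCp over EILP and 259 for EILP against the mean. The cause of these moves was not tested. Median centring turned the higher and lower genes for EILP over ALP to 804 and 395, against 419 and 520, with 279 and 390 against 327 and 271 for ILCp over EILP, 813 and 584 against 718 and 816 for ILCp over ALP, and 463 and 197 against 204 and 245 for EILP against the mean. Depth is unknown, so low members (Chd7, Cbx7, Hdac9) can be given no counting error.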
